A study of Mus musculus with 88 samples.

Results

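Etv1, Etv4, Etv5, Ets1, Ets2, Myc and Mycn are 7 genes for transcription factors that act downstream of the kinase ERK, and their RNA was followed across mouse embryonic stem cell (ESC) cultures. They were chosen by name and not by a rule on measured values, though with earlier results of these data known. Each name stood at 1 of the 21942 loci of the deposited RPKM table (reads scaled to gene length and to the reads mapped in the library), and all 26 RNA-seq libraries of the series were used. The 62 bisulfite samples among the 88 samples were not analysed here.

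The ESC lines were derived from F1 embryos of 129X1/SvJ with either C57BL6 (B6 cross, 16 libraries) or MSM/Ms (MSM cross, 10 libraries). The B6 cross had 4 media, with 2 XX and 2 XY lines in each. The medium 2i holds a MEK inhibitor, which blocks the activation of ERK, and a GSK3 inhibitor. In t2i the MEK inhibitor is titrated down, in a2i a Src inhibitor takes its place, and the fourth medium is serum with LIF. These contents are background on the study, since the labels give the media by name only. In the MSM cross, 2i was the medium of 4 lines (2 and 15 with XX, 20 and 23 with XY), and serum that of XX line 8 and XY line 12. It also had 1 culture of line 15 moved from 2i to serum (2i-S), 2 cultures of embryonic fibroblasts, and 1 of fibroblasts from ESC line 15 (2i-MEF). Each ESC line was at passage 3, the 2i-S culture at passage 3 plus 14, the fibroblasts at passage 1 and the 2i-MEF culture at passage 5 plus 1, so medium history cannot be told apart from passage in comparisons with 2i-S or 2i-MEF. No label states whether lines of a group came from separate embryos, so p-values measure the spread between these lines. Line 15 supplied 3 of the MSM libraries, which the fits treated as separate.

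Etv1, Etv4 and Etv5 form the PEA3 branch of the ETS family, whose members bind GGA-centred DNA elements and activate transcription. In the FGF pathway a receptor signals through Ras to MEK and ERK, and Etv4 and Etv5 are classic transcriptional outputs that the repressor capicua holds down until ERK inactivates it. Ets1 and Ets2 are founding ETS factors that ERK phosphorylates directly. Myc and Mycn encode basic helix-loop-helix proteins that pair with Max at E-boxes to drive growth genes, and their proteins are stabilised by ERK and marked for destruction by GSK3. In ESCs, Mycn and Myc back each other up in self-renewal, and FGF4 signalling through ERK moves cells towards lineage commitment.

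The cultures matched their labels in most respects. All 8 ESC markers reached 1 RPKM in each of the 23 ESC libraries, and 0 of the 8 did so in the 3 fibroblast libraries. The median X-linked minus autosomal signal stood at 0.61 to 0.97 (log2) in the B6 XX lines and at −0.04 to 0.03 in the B6 XY lines. The lowest of the XX lines were both serum lines, 17 (0.65) and 46 (0.61). The labels of the 2 MEF libraries disagree on sex, so these carried none. The B6 serum libraries stood apart from the other ESC libraries: the 16 fibroblast markers summed to 948 to 1484 RPKM, against 6.02 to 17.7 in the 12 libraries of the 3 other B6 media. From these markers, fibroblast RNA was estimated at 8.08% to 13.4% of the serum libraries, at most 0.0301% of the other B6 libraries and 0.53% to 1.57% of the MSM serum libraries. In such bulk samples, fewer cells of a type and less RNA per cell cannot be told apart. RPKM keep no absolute depth. Relative depth, read from the smallest steps in the values, ran from 0.763 to 1.85. All 183 Y-linked and all 13 mitochondrial loci read 0 in every MSM library, its XY lines included, while the B6 XY lines read Y-linked genes. Whether the values of the crosses were made alike is unknown. Levels were not compared between crosses by a test, and the orders of cultures below that mix crosses are descriptions.

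RefSeq promoter windows (GRCm38.p6) were at hand for 4 of the 7 members, at 6 start sites: Etv1, Etv5, Ets2 and Mycn. The 250 bases before the start are given for the 3 of these genes whose levels the results turn on: Etv5 and Mycn, the most abundant members of their families in ESCs, and Ets2, the member with an XX to XY difference. Capitals mark letters that match the motif TGAATGG (either strand), a core of capicua sites, in Etv5, and TTTGGCGC, the E2F motif, in Mycn. The Etv5 window lies at chr16:22438369-22438618 on the minus strand, before the inner of a pair of starts that lie 1202 bases apart. Its TGAATGG motif was searched after the sequence had been read. The Mycn window lies at chr12:12941837-12942086 on the minus strand and the Ets2 window at chr16:95702157-95702406 on the plus strand. These starts are those of RefSeq. By the gene coordinates given further on, the Ets2 window and this Etv5 window lie within the gene, and the Mycn window lies partly within it.
Etv5: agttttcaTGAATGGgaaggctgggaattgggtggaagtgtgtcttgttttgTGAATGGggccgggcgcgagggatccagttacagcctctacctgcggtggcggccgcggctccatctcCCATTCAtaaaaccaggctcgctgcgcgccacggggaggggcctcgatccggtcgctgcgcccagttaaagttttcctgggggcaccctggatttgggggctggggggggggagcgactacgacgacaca
Mycn: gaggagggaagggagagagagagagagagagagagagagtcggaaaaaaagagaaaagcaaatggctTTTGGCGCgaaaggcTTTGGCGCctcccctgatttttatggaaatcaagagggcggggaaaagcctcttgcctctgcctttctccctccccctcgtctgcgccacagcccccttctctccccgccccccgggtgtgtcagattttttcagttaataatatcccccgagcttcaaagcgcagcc
Ets2: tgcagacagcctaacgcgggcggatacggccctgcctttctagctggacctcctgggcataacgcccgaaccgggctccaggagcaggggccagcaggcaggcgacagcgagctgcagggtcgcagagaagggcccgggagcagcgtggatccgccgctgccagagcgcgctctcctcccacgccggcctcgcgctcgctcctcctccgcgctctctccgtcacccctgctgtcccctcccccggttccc
Etv5 held TGAATGG at 3 places, from −242 to −236, from −198 to −192 and, on the other strand, from −130 to −124 relative to the start. The window before the outer Etv5 start held no match. Of all 32851 promoter windows, 2.98% held at least 1 such match and 0.00304% held 3 or more, a description only, since the motif was taken from this window. Mycn held TTTGGCGC at −183 to −176 and at −168 to −161. At least 1 match stood in 0.417% of the windows and at least 2 in 0.00609%. No capitals stand in the Ets2 window because none of the 9 motifs searched on both strands matched there. The letters of the E-box (CACGTG, in 6.02% of the windows), an ETS element (CCGGAAG, 6.91%), a STAT element (TTCCNGGAA, 0.913%), a TCF element (CTTTGAT, 3.21%), the CArG box (1.47%) and longer capicua elements (TGAATGAA, 1.08%, and TGAATGGA, 1.01%) were in no member's window. These are matches of letters only, and gene-level RPKM do not tell the Etv5 starts apart.

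Within the PEA3 branch, Etv5 was the abundant member in ESCs and Etv4 the variable one. Etv5 (chr16:22381309-22439719 in mm10, as the table gives it) was highest in the MSM serum lines at 244.5 ± 15.3 RPKM (SD, n = 2). The single 2i-S culture read 163 RPKM and the MSM 2i lines 147 ± 28.3 (SD, n = 4). The B6 media followed at 121 ± 18.4 RPKM in 2i, 106 ± 14.2 in a2i, 98.7 ± 16.0 in t2i and 95.6 ± 37.7 in serum (SD, n = 4 each). From 2i-S down to B6 serum each culture's range overlapped the next. The fibroblasts were apart from every ESC culture at 16.9 ± 1.74 RPKM (SD, n = 2), and 2i-MEF read 7.79.

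Etv4 (chr11:101769742-101785371) spanned 0.602 to 77.8 RPKM across the 23 ESC libraries. Its order was B6 serum at 53.5 ± 7.02 RPKM (SD, n = 4), MSM serum at 43.95 ± 47.9 (SD, n = 2), a2i at 37.4 ± 9.25, t2i at 24.6 ± 13.2, and B6 2i at 19.5 ± 7.29 (SD, n = 4 each). Each of these overlapped its neighbour. Then came the fibroblasts at 18.7 ± 3.92 RPKM (SD, n = 2), 2i-S at 15.7 and 2i-MEF at 8.25. The MSM 2i lines were lowest at 3.32 ± 4.12 RPKM (SD, n = 4), and their highest line overlapped 2i-MEF. In RefSeq the gene overlaps an lncRNA gene, Gm39392, which has no row in the table.

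Etv1 (chr12:38779380-38868215) was low in every culture. MSM serum stood first at 5.18 ± 1.70 RPKM (SD, n = 2), followed by 2i-S at 3.40 RPKM. B6 serum (3.25 ± 0.798), MSM 2i (3.06 ± 1.88), a2i (2.86 ± 1.37), B6 2i (2.78 ± 0.840; SD, n = 4 each), the fibroblasts (2.62 ± 1.16; SD, n = 2) and t2i (2.15 ± 1.15; SD, n = 4) then overlapped in turn, and 2i-MEF read 0.618. Per length, Etv5 thus made up most of the RNA of the branch in most ESC libraries: its share of the summed RPKM of Etv1, Etv4 and Etv5 was 40.4% to 98.5% with a median of 79.9% in 23 ESC libraries, against 43.8% to 46.8% in the 3 fibroblast libraries. Within the B6 cross the share ran from 81.4% to 88.5% in 2i, 71.5% to 89.2% in t2i, 68.5% to 76.9% in a2i and 40.4% to 69.5% in serum, so the serum lines overlapped only the a2i lines.

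**Figure D1:**
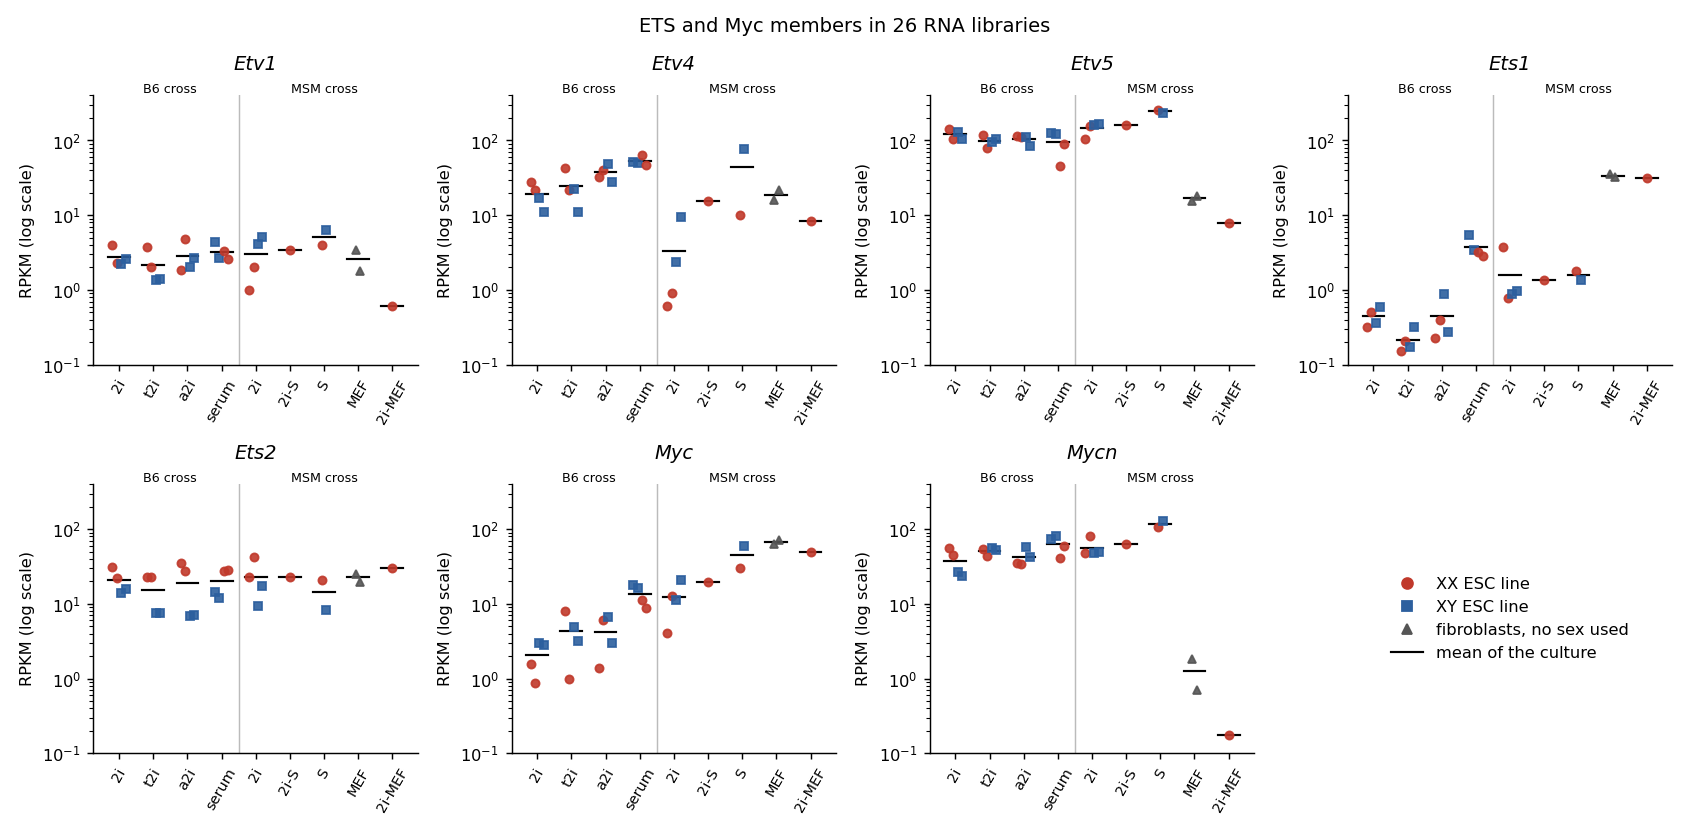
RPKM of each of the 7 genes (log axis) in every library, by culture. Red circles are XX lines, blue squares XY lines, grey triangles fibroblasts, and black lines culture means. Mycn and Etv5 sit low in fibroblasts, where Ets1 and Myc sit high. Ets2 separates the red from the blue points in each B6 medium.

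Ets1 (chr9:32636221-32757820) was a fibroblast gene in these data, and Ets2 (chr16:95702075-95721051) was expressed in all cultures. Ets1 stood at 33.8 ± 2.31 RPKM (SD, n = 2) in fibroblasts and 31.8 in 2i-MEF. B6 serum followed at 3.73 ± 1.13 RPKM (SD, n = 4), then, overlapping in turn, MSM 2i at 1.60 ± 1.45 (SD, n = 4) and MSM serum at 1.58 ± 0.332 (SD, n = 2), whose range held the 1.35 of 2i-S. The remaining B6 media overlapped each other at 0.446 ± 0.306 RPKM in a2i, 0.442 ± 0.126 in 2i and 0.213 ± 0.0767 in t2i (SD, n = 4 each). For Ets2, culture means lay between 14.5 RPKM in MSM serum and 30.1 in 2i-MEF, and each culture's range overlapped the next. In order, the means between were 23.0 ± 13.8 RPKM in MSM 2i (SD, n = 4), 22.6 ± 4.04 in fibroblasts (SD, n = 2), 22.6 in 2i-S, and 20.8 ± 7.74 in 2i, 20.5 ± 8.45 in serum, 19.1 ± 14.4 in a2i and 15.4 ± 9.01 in t2i of the B6 cross (SD, n = 4 each).

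Myc led in fibroblasts and Mycn in ESCs. Myc (chr15:61985341-61990374) was highest in fibroblasts at 68.0 ± 5.96 RPKM (SD, n = 2), followed by 2i-MEF at 48.9, which lay within the range of MSM serum (44.8 ± 20.8; SD, n = 2). Then came 2i-S at 19.9 RPKM, B6 serum at 13.65 ± 4.36 and MSM 2i at 12.3 ± 6.90 (SD, n = 4 each), of which the last pair overlapped. The other B6 media were lowest and overlapped, at 4.27 ± 2.97 RPKM in t2i, 4.26 ± 2.48 in a2i and 2.07 ± 1.02 in 2i (SD, n = 4 each). Mycn (chr12:12936096-12941914) was highest in MSM serum at 119 ± 14.9 RPKM (SD, n = 2). From B6 serum (64.2 ± 17.8; SD, n = 4) through 2i-S (64.0), MSM 2i (56.5 ± 15.7), t2i (51.6 ± 5.94), a2i (42.2 ± 10.7) and B6 2i (37.6 ± 15.5; SD, n = 4 each) the ranges overlapped in turn. Mycn was 1.28 ± 0.801 RPKM in the fibroblasts (SD, n = 2) and 0.175 in 2i-MEF. Its share of the summed RPKM of Myc and Mycn was 68.5% to 98.1% in the 23 ESC libraries, with a median of 87.2%, and 0.357% to 2.81% in the 3 fibroblast libraries.

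**Figure D2:**
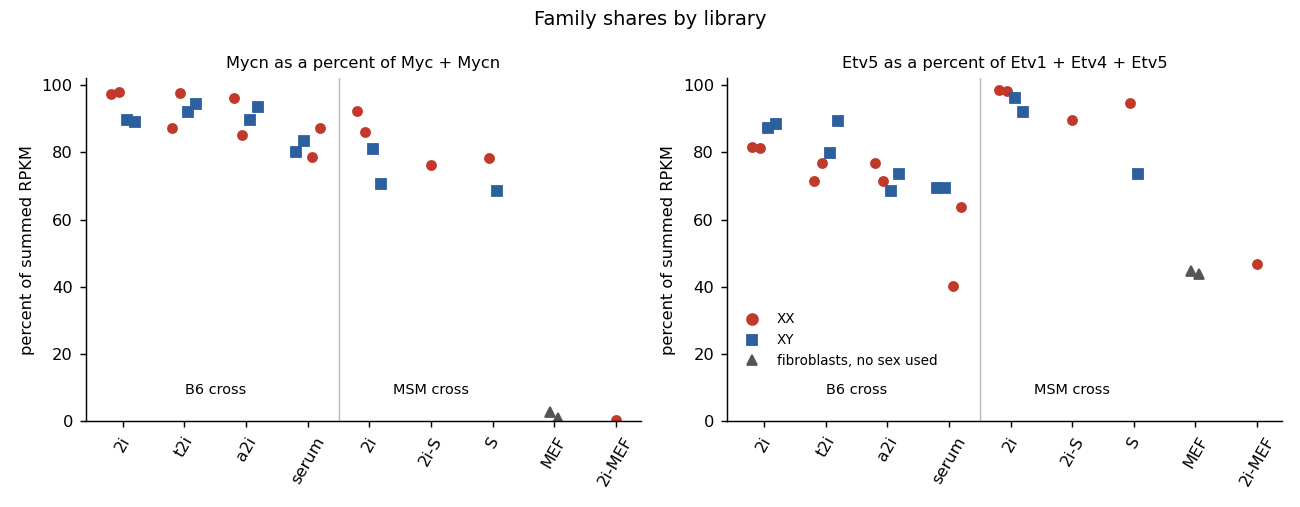
Share of Mycn in the summed RPKM of Myc and Mycn, and of Etv5 in that of Etv1, Etv4 and Etv5, in percent, for each library by culture. Mycn holds at least 68.5% in every ESC library and at most 2.81% in the fibroblast libraries.

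In the B6 cross, 2i was first compared with serum. These media differ in the MEK inhibitor, the GSK3 inhibitor and serum itself, which cannot be told apart in this comparison. Etv4, Mycn, Myc and Ets1 were lower in 2i, whereas Etv5, the most abundant ETS member, was not. Of the 7 members 4 fell and 0 rose (limma on log2(RPKM + 1), adjusted p under 0.05). The background was high, since 47.6% of all 13150 genes tested were called in this comparison.

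Etv4 read 28.2, 21.8, 16.8 and 11.1 RPKM in the 2i lines (XX c3 and c4, XY c2 and c6) and 63.6, 47.6, 52.3 and 50.4 in the serum lines (XX 17 and 46, XY 10 and 16). All 4 serum lines lay above all 4 lines in 2i. The difference was −1.48 ± 0.26 (log2, SE; adjusted p = 4.4e-04, limma), with the mean in serum 2.74 times that in 2i. Fibroblast RNA accounted for 2.37% to 4.96% of the Etv4 signal in serum, and the call held after that RNA was subtracted.

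Mycn read 55.97, 44.7, 26.3 and 23.4 RPKM in the 2i lines and 41.2, 59.96, 73.8 and 81.7 in the serum lines, in the same order of lines. The groups overlapped through the XX lines, while both XY serum lines lay above all 4 lines in 2i. Mycn fell by 0.80 ± 0.13 (log2, SE; adjusted p = 3.4e-04, limma). The fibroblast share accounted for at most 0.267% of its signal in serum.

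Myc, the paralogue of Mycn, read 1.56, 0.880, 3.00 and 2.85 RPKM in 2i and 11.2, 8.86, 18.2 and 16.4 in serum. The groups did not overlap, and within each medium the XX lines were the lower pair. Myc fell by 2.27 ± 0.42 (log2, SE; adjusted p = 7.3e-04, limma). Myc was also abundant in fibroblasts. At the mean Myc level of the MSM fibroblast cultures, the estimated share makes up 41.9% to 96.2% of the Myc signal in serum. Whether fibroblast RNA in the B6 serum libraries carries that level is unknown. The same estimate exceeded the Ets1 value read in lines 16 and 46. After subtraction the serum lines read 5.67 (line 17), 0.339 (line 46), 10.6 (line 10) and 7.31 RPKM (line 16), so that line 46 lay below all 4 lines in 2i. The difference was then −0.89 and was not called (adjusted p = 0.19, limma, the highest of the 13 alternatives, the lowest being 4.0e-06).

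Ets1 read 0.318, 0.508, 0.356 and 0.584 RPKM in 2i and 3.26, 2.89, 5.40 and 3.38 in serum, with no overlap. It fell by 1.69 ± 0.15 (log2, SE; adjusted p = 1.6e-06, limma). By the estimate, fibroblast RNA made up 70.0% to 100% of this serum signal. The 100% is a cap. In lines 16 and 46 the estimate, 4.52 and 4.23 RPKM, exceeded the 3.38 and 2.89 RPKM read, so it was too large there. After subtraction 2 serum lines were left at 0, the others at 1.62 (line 10) and 0.530 RPKM (line 17), and Ets1 no longer reached 1 RPKM in 2 libraries, so it could not be tested. The 8 primitive endoderm markers were also higher in serum, at a summed 25.9 to 126 RPKM against 7.61 to 13.6 in 2i. The fibroblasts themselves summed to 97.45 to 152.9 RPKM for these markers and 2i-MEF to 88.1, so this list does not separate the 2 cell types. Their part in these results was not tested.

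**Figure D3:**
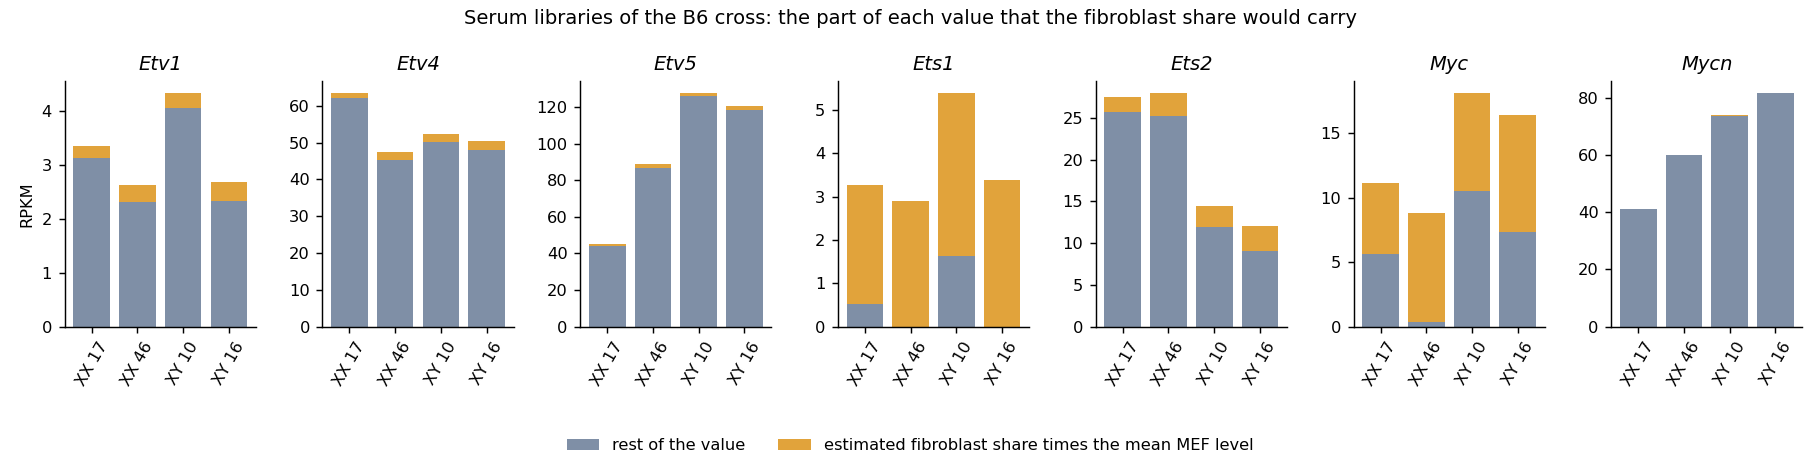
RPKM of the 7 genes in the 4 B6 serum libraries, each bar split into the part that the estimated fibroblast share accounts for and the rest. The estimated fibroblast part, capped at the value read, makes up 70.0% to 100% of Ets1 and 41.9% to 96.2% of Myc. It makes up under 5% of Etv4, Etv5 and Mycn.

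Etv5 was not lower in 2i. It read 142, 106, 130 and 105 RPKM in 2i and 45.3, 88.6, 128 and 121 in serum, a difference of 0.43 (log2, 95% interval 0.01 to 0.84; adjusted p = 0.084, limma). The groups overlapped, and the serum XX lines were the lowest pair. Without serum XX line 46, which leaves the low line 17 as the only XX line in serum, the difference was 0.66 and was called. Etv1 (difference −0.18, 95% interval −0.68 to 0.33) and Ets2 (0.04, −0.21 to 0.29) overlapped between the media. Across all genes the median difference was −0.09, moving to 0.07 under quantile normalization, and the genes called went from 2215 higher and 4042 lower in 2i to 3785 and 2816. The 4 members remained called and lower under that scaling, at the same threshold.

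The media t2i and a2i were then set against 2i, with MEK inhibition relaxed in t2i and absent in a2i. In a2i its absence cannot be told apart from the Src inhibitor that takes its place. Averaged over the sexes, Etv4 was higher in a2i, Mycn was higher in t2i, and Ets2 was lower in both. In a2i the sexes moved apart: mean Ets2 went from 26.7 RPKM in 2i to 31.3 in XX lines and from 14.9 to 6.94 in XY lines. Mycn in t2i changed by −0.04 (log2) in XX lines and by 1.10 in XY lines. Against 2i, 1 member rose and 1 fell in each medium, over a background of 8.08% of genes called for t2i and 13.8% for a2i. Both comparisons share their 2i lines, so they are not independent.

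In a2i, Etv4 read 32.8 and 40.1 RPKM in the XX lines (a4, a18) and 49.02 and 27.7 in the XY lines (a1, a3). Only XY line a3 lay below a line in 2i, namely XX line c3 at 28.2. The difference from 2i was 0.95 ± 0.26 (log2, SE; adjusted p = 0.028, limma), or 1.92 times the mean in 2i. In t2i, Etv4 read 42.8, 21.7, 22.5 and 11.2 RPKM (t1, t3, t2, t6), with line t1 above every line in 2i and the others within or near their range, a difference of 0.25 (95% interval −0.31 to 0.81; adjusted p = 0.63, limma). Leaving out 2i line c4 or c6 or a2i line a18 or a1 ended the call in a2i, with differences of 0.75 to 0.88.

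Mycn in t2i read 54.7 and 43.1 RPKM in the XX lines and 56.4 and 52.2 in the XY lines, 0.53 ± 0.13 above 2i (log2, SE; adjusted p = 0.032, limma). Only the XY lines were clear of their 2i counterparts of the same sex, as described for the sexes further on. Leaving out any of 2i lines c4, c2 and c6 or t2i lines t1, t2 and t6 ended this call, at differences between 0.44 and 0.57. Ets2 read 23.2, 23.1, 7.59 and 7.54 RPKM in t2i (XX t1 and t3, XY t2 and t6), 0.53 ± 0.11 below 2i (adjusted p = 0.013, limma), a call that was lost without 2i line c3 (−0.42) or c6 (−0.49). In a2i it read 35.1, 27.5, 6.81 and 7.08, a difference of −0.38 ± 0.11 (adjusted p = 0.042, limma) that was not called without any of c3, c2, c6, a18, a1 or a3 (−0.43 to −0.27), nor in a fit of these 8 libraries alone. In both media the XY lines were lower than in 2i. When genes with low values were also tested, Ets2 in t2i was the only call of these 4 that was kept, at the same estimates.

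Myc was scattered in these media, at 8.02, 0.988, 4.90 and 3.18 RPKM in t2i and at 1.40, 6.02, 6.61 and 3.01 in a2i. Lines t1, a1 and a18 were the highest, and the differences from 2i were 0.65 (95% interval −0.27 to 1.56) and 0.70 (−0.22 to 1.62), neither called. Etv5, with differences of −0.29 (−0.70 to 0.12) in t2i and −0.19 (−0.60 to 0.23) in a2i, was not called either. Ets1 stayed at or below 0.8935 RPKM in every t2i and a2i line.

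Between a2i and t2i 0 of the 7 members were called by limma, against 1% of all genes (132 genes). At an unadjusted p under 0.05, 1878 of 13150 genes passed, among them Etv4 (0.70, 95% interval 0.14 to 1.26) and Mycn (−0.31, −0.60 to −0.02). Against serum, t2i had 4 members lower (Ets1, Myc, Etv4 and Ets2, at −1.94, −1.62, −1.23 and −0.49) over a background of 43.8%, and a2i had 4 lower (Ets1, Myc, Mycn and Ets2, at −1.70, −1.57, −0.58 and −0.34) over 37.4%. Etv4 in a2i was 0.53 below serum and was not called (adjusted p = 0.13, limma), though it was in a fit of these 8 libraries alone. The fibroblast RNA of the serum lines touches the Ets1 and Myc values here as above, and it accounted for 6.63% to 25% of their Ets2. After its subtraction Etv4 alone was still called in t2i and Mycn alone in a2i. Of 12900 genes then tested, 2197 were lower than serum in t2i and 1785 in a2i. The call of Ets2 in a2i against serum was also lost without any of lines a18, a1, a3, 10, 17 or 46 (−0.35 to −0.26) and with quantile normalization (−0.18).

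**Figure D4:**
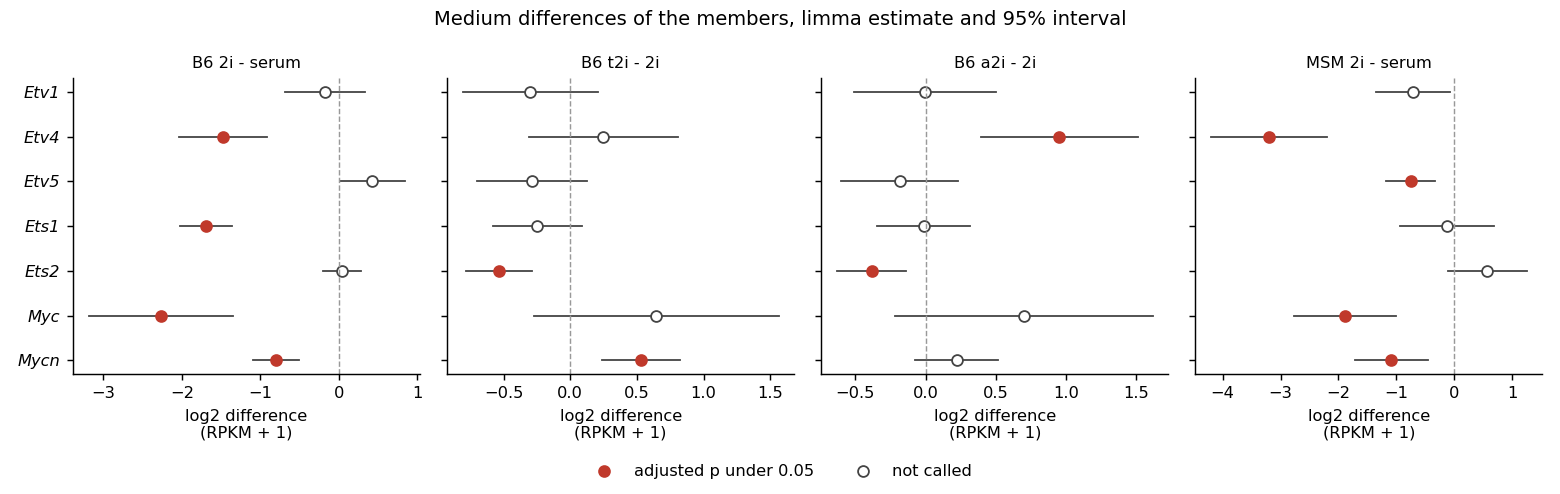
Estimated difference (log2 RPKM + 1) with its 95% interval for each gene in 4 comparisons of media, 3 in the B6 cross and 1 in the MSM cross. Filled red points passed the test. Etv4 lies left of 0 in both 2i against serum panels and right of 0 for a2i against 2i.

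Ets2 was higher in the XX lines of all 4 media of the B6 cross, with no overlap between the sexes in 4 of 4 media. In 2i it read 31.0 and 22.5 RPKM in XX lines and 13.8 and 15.9 in XY lines, and in serum 27.6 and 28.03 against 14.4 and 12.1. With the t2i and a2i values given above, the XX mean was 1.80 times the XY mean in 2i, 3.06 times in t2i, 4.51 times in a2i and 2.1 times in serum. The average difference was 1.33 ± 0.08 (log2, SE; 95% interval 1.16 to 1.51; adjusted p = 9.3e-08, limma), and it was called without any single line. Ets2 was the only member called, against 41.5% of all genes, so the number of members called was not high. Ets2 is autosomal, on chromosome 16.

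The size of the Ets2 difference depended on the medium. From 2i to a2i Ets2 changed by 0.23 in XX lines and by −0.99 in XY lines, and the difference of these changes, 1.22 ± 0.23, was called (adjusted p = 0.014, limma). With single lines left out it was 0.999 to 1.45 and was still called, without 2i line c4 just under the threshold. For t2i the same difference was 0.70 and was not called (adjusted p = 0.16, limma). The t2i XY lines were the lowest XY lines in the Y-linked genes Ddx3y and Eif2s3y. In Uty, t2i line t6 (3.79 RPKM) lay above a2i line a3 (3.51). Over these 3 genes the t2i XY lines read 19.3% to 75.5% of the mean of the 6 other XY lines. The a2i XY lines read 69.9% to 136% of that mean, which includes them. The B6 serum XX lines 17 and 46 read 5.07% to 17.9% of it, where every other B6 XX line was below 1%. The part of these Y-linked signals in the t2i values, and in the differences between the sexes in serum, was not tested.

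Mycn differed by sex in opposite directions in different media. In 2i the XX lines (55.97 and 44.7 RPKM) lay above the XY lines (26.3 and 23.4), in t2i the sexes overlapped, and in a2i (34.8 and 34.5 against 57.2 and 42.3) and serum (41.2 and 59.96 against 73.8 and 81.7) the XY lines lay above. Averaged over media, the difference was −0.08 (95% interval −0.28 to 0.13). From serum to 2i Mycn changed by 0.01 in XX lines and by −1.61 in XY lines, a difference of 1.62 ± 0.27 (adjusted p = 0.0036, limma). It was the only member called among the differences between sexes in 2i against serum, where 8.17% of genes were called. From 2i to a2i it changed by −0.52 in XX lines and 0.96 in XY lines, a difference of −1.48 ± 0.27 (adjusted p = 0.012, limma). That comparison called 2 members, Mycn and Ets2, against 4.93% of genes. For t2i against 2i, 0 members were called by limma, against 1.26% of genes. There 1923 genes had an unadjusted p under 0.05, including Mycn (−1.14, 95% interval −1.73 to −0.56; adjusted p = 0.065, limma) and Ets2. Both called Mycn differences held with any single line left out.

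**Figure D5:**
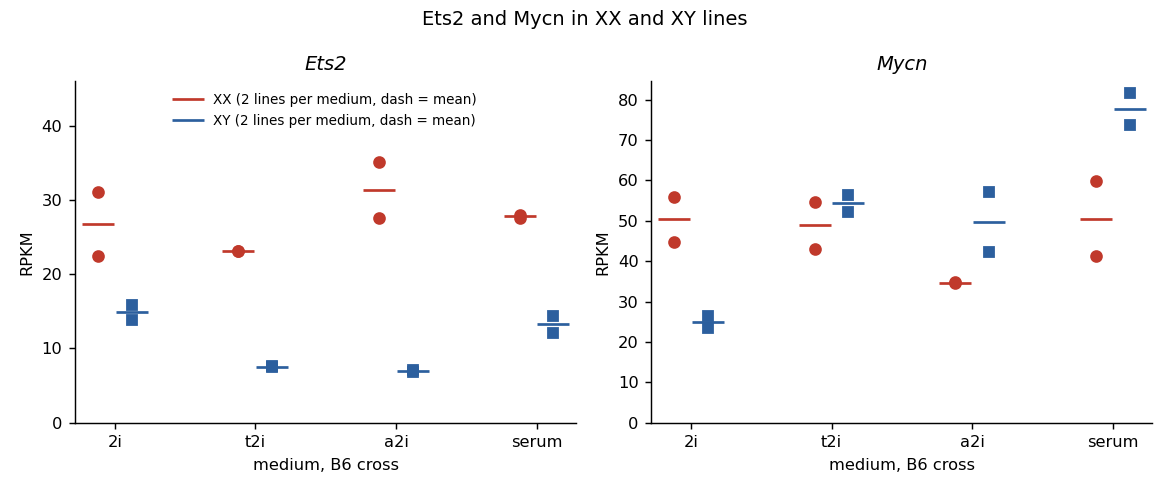
RPKM of Ets2 and Mycn in the 16 B6 libraries by medium, XX lines as red circles and XY lines as blue squares, with a dash at the mean of each sex. Ets2 is higher in XX lines in every medium, and the means of Mycn cross between 2i and the other media.

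No other member was called between the sexes. Etv4 was higher in XX by 0.45 (95% interval 0.05 to 0.84; adjusted p = 0.067, limma), with the sexes apart in 1 of 4 media, 2i. Myc was lower in XX by an estimate of −0.56 (−1.21 to 0.09) and apart in 2 of 4 media, 2i and serum. Etv5 in serum read 45.3 and 88.6 RPKM in XX lines against 128 and 121 in XY lines. The difference between the sexes in the change of Etv5 from serum to 2i was 1.02, which was not called (adjusted p = 0.12, limma).

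In the MSM cross, serum lines again had more Etv4, Myc and Mycn than 2i lines, and here also more Etv5. Of the 7 members 4 fell in 2i and 0 rose, against a background of 17% of 13443 genes called. With 2 serum lines, 1 of each sex, the calls were fragile, as given below.

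Etv4 read 0.602, 0.922, 2.37 and 9.39 RPKM in the MSM 2i lines (XX 15 and 2, XY 20 and 23) and 10.1 and 77.8 in the serum lines (XX 8, XY 12). Every serum line lay above every 2i line, though XX line 8 only just. The difference was −3.20 ± 0.44 (log2, SE; adjusted p = 0.0037, limma), with the mean in serum 13.2 times that in 2i, and without serum line 12 it was −2.66 and was not called. Line 15 was read in 2i and, as 2i-S, after a move to serum with further passages, with a single library of each. In this comparison medium cannot be told apart from passage, so it does not repeat that of 2i lines with serum lines. Etv4 rose from 0.602 RPKM in 2i to 15.7 in 2i-S, 26 times higher. Over all MSM 2i lines the 2i-S difference was 3.43 ± 0.60 (adjusted p = 0.048, limma), which was lost without 2i line 15 or 2 (3.46 and 3.65), after subtraction of fibroblast RNA (3.42) and with genes of low values also tested. Etv4 was the only member called for 2i-S, where 1.22% of genes were.

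Myc read 4.09, 12.8, 11.2 and 20.9 RPKM in 2i and 30.1 and 59.5 in serum, without overlap. It fell by 1.89 ± 0.38 (log2, SE; adjusted p = 0.015, limma). Subtraction of fibroblast RNA left the difference at −1.88, still called. Mycn read 48.3, 80.1, 47.7 and 49.9 RPKM in 2i and 108 and 129 in serum, a difference of −1.09 ± 0.27 (adjusted p = 0.033, limma), again without overlap. Etv5 read 105, 156, 162 and 165 RPKM in 2i and 255 and 234 in serum, without overlap, a difference of −0.75 ± 0.19 (adjusted p = 0.03, limma). Leaving out serum line 8 or 12 ended the calls of Myc (−1.89 in each case), Mycn (−1.39 and −0.79) and Etv5 (−0.51 and −0.99). Mycn was also not called without 2i line 15, 20 or 23, nor Etv5 without line 20 or 23, at differences of −1.06 to −0.78. With genes of low values also tested, Etv4 was the only member called, at the same estimates. In 2i-S, line 15 read 19.9 RPKM of Myc, 64.0 of Mycn and 163 of Etv5, each above its own 2i value, and none of the 3 was called.

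Ets1, Ets2 and Etv1 were not called between MSM 2i and serum. Ets1 read 3.77 RPKM in line 15 and 0.785 to 0.965 in the other 2i lines, against 1.34 and 1.81 in serum. Ets2 read 23.0, 41.95, 9.39 and 17.5 in 2i and 20.9 and 8.17 in serum, where the XX lines 15, 2 and 8 were the 3 highest. The XX minus XY estimate for Ets2 over the MSM lines was 1.23 (95% interval 0.59 to 1.87; adjusted p = 0.055, limma), and the XX and XY lines did not overlap. Etv4 was the only member called by sex here, with an XX minus XY difference of −2.11 ± 0.41 (adjusted p = 0.036, limma), over a background of 3.44%. This call was lost without any of lines 2, 8, 12, 15 and 23 (−2.29 to −1.75) and with genes of low values also tested. Whether this differs from the B6 cross, where the Etv4 estimate was positive, was not tested.

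The difference between the crosses in 2i against serum was called for 2 members, against 11.6% of 13330 genes. Etv4 changed more in the MSM cross, by −1.72 ± 0.50 (log2, SE; adjusted p = 0.044, limma). That call was lost in 9 of 14 fits that left out a library (MSM lines 15 and 12, B6 lines c3, c4, c2, 10, 16, 17 and 46, at −1.80 to −1.18), after subtraction (−1.79) and with genes of low values also tested. Ets1 changed by 1.57 ± 0.40 less (adjusted p = 0.025, limma), and without MSM serum line 8 or 12 this was not called (1.40 and 1.74), nor with quantile normalization (1.16). After subtraction of fibroblast RNA the Ets1 difference was 0.05. Over all genes the median of this difference was 0.12, against −0.07 with quantile normalization and −0.04 after subtraction. The genes called were 1263 higher and 281 lower as deposited, 713 and 471 with quantile normalization, and 432 and 370 after subtraction.

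Fibroblasts and the MSM 2i lines differed in members of both the Myc and ETS families. Against the MSM 2i lines, Ets1, Myc and Etv4 rose and Mycn and Etv5 fell. These 5 of 7 members stand beside 67.7% of all genes called and an all-gene median of −0.24. The sex term covered the ESCs alone, so the fit set the fibroblasts against the fitted XY level of the 2i lines. The fibroblast cultures read 35.4 and 32.2 RPKM of Ets1, 63.8 and 72.2 of Myc, 15.9 and 21.4 of Etv4, 1.84 and 0.712 of Mycn, and 15.7 and 18.1 of Etv5. Of these, none overlapped the 2i lines. Ets1 differed by 4.12 ± 0.39 (log2, SE; adjusted p = 4.1e-05, limma) and Mycn by −4.60 ± 0.30 (adjusted p = 6.8e-06, limma), with mean Mycn in 2i 44.2 times that in fibroblasts. Etv4 was not called without either fibroblast culture (1.74 and 1.34) or with genes of low values also tested. As its XX minus XY difference was −2.11, these Etv4 estimates are smaller than they would be against both sexes.

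The 2i-MEF culture lay nearer to the fibroblasts than to its parent line in Ets1, Myc, Mycn and Etv5. It read 31.8 RPKM of Ets1, 48.9 of Myc, 0.175 of Mycn and 7.79 of Etv5, where its parent line 15 read 3.77, 4.09, 48.3 and 105 in 2i. Between 2i-MEF and the fibroblasts 0 members were called by limma, against 0.454% of genes. At an unadjusted p under 0.05, 1494 genes passed, with Etv5 (−1.02, 95% interval −1.63 to −0.42), Etv1 (−1.12, −2.04 to −0.21) and Mycn (−0.91, −1.80 to −0.01) among them.

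Other genes around the 7 members were read from lists, against the shares of all genes called. The lists were chosen with earlier results of these data known, so their counts are descriptions. In B6 2i against serum 30.7% of all genes fell and 16.8% rose, in a2i against 2i 7.94% rose and 5.85% fell, in t2i against 2i 4.19% rose and 3.89% fell, and in MSM 2i against serum 8.67% fell and 8.36% rose. After subtraction of fibroblast RNA the balance in B6 2i against serum was the other way. Of 12900 genes then tested 3642 rose and 2504 fell, and list counts after subtraction are read against these. The list of 18 further ERK readouts holds feedback inhibitors and immediate-early genes such as Dusp6, a phosphatase of ERK, Spry4, an inhibitor upstream of it, and the AP-1 subunit Fos. All 18 fell in B6 2i against serum, with a median of −2.22 against −0.09 over all genes, led by Fos (−6.07), Egr1 (−5.65) and Fosb (−5.41). After fibroblast subtraction 18 of 18 were still called lower, with a median of −1.53. In a2i against 2i 9 of the 18 rose (median 0.47), led by Spry4 (2.27), Dusp6 (1.57) and Dusp4 (1.17), and in t2i 3 rose, Spry4 (1.35), Dusp6 (0.85) and Ccnd1 (0.66). In MSM 2i 12 of 18 fell, with a median of −0.94. In these comparisons of 2i with serum in both crosses and of a2i with 2i, Etv4 was called in the direction of the list.

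The 18 genes of the cascade from FGF to ERK moved less. In B6 2i against serum 10 fell and 2 rose, with Fgfr2 (−1.78), an FGF receptor, Mapk3 (−1.02), which encodes ERK1, and Braf (−0.77) leading. The ligand gene Fgf4 rose by 0.51. After subtraction 6 fell and 3 rose. Mapk3 was the only gene of this list called in t2i (0.58) and in a2i (0.74) against 2i, higher in both.

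The other ETS genes gave a mixed picture. Of 21, 14 were tested in the B6 cross, and 3 rose and 3 fell in 2i against serum, led by Spic (3.03), Elf3 (0.96) and Elk3 (−0.92). After subtraction 5 rose and 1 fell. In a2i Spic fell by 1.08 and Elk3 rose by 0.57. Spic (2.94), Elf3 (1.83) and Elf4 (1.36) were the 3 that rose in MSM 2i, and none of the 16 tested fell.

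The partners, regulators and targets of Myc are read against the same shares of all genes in B6 2i against serum. In the Myc and Max network, 2 of 11 genes fell and 0 rose: Mxd4 (−1.48), a Max partner that opposes Myc, and Mlxip (−0.77). Of 12 tested regulators of ETS and Myc repression or turnover, 5 fell and 1 rose, with Atxn1l (−0.66), a capicua partner, leading and Aurka (0.39), a kinase that protects Mycn protein, the gene that rose. Among 18 growth genes known as Myc targets, 6 rose and 2 fell. Dkc1, a pseudouridine synthase component, rose by 0.41, while Odc1 (−0.54), the rate-limiting enzyme of polyamine synthesis, and Ldha (−0.41) fell. After subtraction of fibroblast RNA 1 gene rose and 1 fell in the network, 2 rose and 1 fell among the regulators, and 9 rose and 1 fell among the targets. Of all 12900 genes then tested, 3642 rose and 2504 fell. In MSM 2i 4 of the 18 fell and none rose: Odc1 (−1.11), Cad (−0.76), Srm (−0.70) and Pa2g4 (−0.53).

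Likeness of pattern was measured as Pearson's r of log2(RPKM + 1) over the 16 B6 libraries, as a description. The points share media, sex and the fibroblast RNA of the serum lines. Ets1 was most like Dab2 (r = 0.982), Dok5 and Sema3e, and Dab2 is among the primitive endoderm markers. The sum of those markers was also high in the fibroblast cultures. Myc was most like B3gnt7 (0.934) and Rarg (0.933). Etv4 was most like the imprinted gene Peg10 (0.906) and Tcf15 (0.897). Ets2 was most like Tmem231 (0.986) and Adgre5 (0.960), and Mycn was most like Slc27a2 (0.900). Etv5 (Smoc1, 0.829) and Etv1 (Sox3, 0.804) had no gene as close. Among the members, Ets1 and Myc were the most alike (0.78), followed by Etv4 with Myc (0.68) and Etv4 with Ets1 (0.62), while Etv5 had an r of −0.21 to 0.12 with the others.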

How the data were processed

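RNA-seq values came from 26 libraries as the deposited gene-level RPKM table (mm10), made by the authors. Stranded mRNA libraries were prepared, per the labels' protocols. Bowtie2 2.2.5, TopHat2 2.1.0, Cufflinks 2.2.1 and cutadapt 1.9.1 are named in the submitters' processing notes, but the sources used here do not say which of them made the RPKM. Values were tested on log2(RPKM + 1) with limma 3.58.1 (trended empirical Bayes) in 3 fits: the 16 B6 libraries with a mean per medium and sex, the 10 MSM libraries with a mean per culture and a sex term, and 14 libraries of both crosses in 2i and serum. A gene entered a fit if 2 or more of its libraries reached 1 RPKM, and all 7 members entered each fit as deposited. P-values were Benjamini-Hochberg adjusted over all genes tested, and below 0.05 a gene was called. For 2i-S and 2i-MEF, with 1 library each, the spread was taken from the other groups. In the MSM fit the sex term marked XX among the ESCs, so fibroblasts were compared with the XY level of 2i. The absolute depth is unknown. The fibroblast share of a library was the median, over 16 markers, of its RPKM relative to the mean of the 2 embryonic fibroblast cultures. On this scale the 2i-MEF culture read 167%. That share of the mean profile of the 2 cultures, both of the MSM cross, was subtracted as an alternative, with values below 0 set to 0. Whether fibroblast RNA in the B6 serum libraries has the same profile is unknown. Other alternatives were a pseudocount of 0.1, no filter, quantile normalization, fits of 8 libraries, and leaving out each library. Subtraction for comparisons among 2i, t2i and a2i was added after seeing the data. Genes named from the lists are the up to 3 called genes with the largest change per list, and in likeness the 3 with the highest r. The members and the lists were chosen with earlier results of these data known. The tests were checked on simulated data. Promoter sequences are from RefSeq. A gene of the lists is not reported here by name.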

Additional observations from a re-analysis of the deposited data

Results flagged for a closer look

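Among 35 groups of 4 lines tested for a line far from the rest, 4 had such a line, where chance gives about 1 in 20. Etv5 was lowest at 84.8 RPKM in a2i XY line a3 of the B6 cross, while the other a2i lines read 111 to 115. In the MSM 2i lines, Etv5 was lowest at 105 RPKM in XX line 15, and Ets1 was highest at 3.77 RPKM in the same line. The fibroblast share accounted for 0.496% of that Ets1 value. Mycn was highest at 80.1 RPKM in MSM 2i XX line 2, against 47.7 to 49.9 in the other lines.

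A difference between groups in the same contrast passed limma's test in 5 cases. The change of Mycn from serum to 2i was greater by 1.62 (log2) in XX than in XY lines of the B6 cross (adjusted p = 0.0036). From 2i to a2i, the change of Ets2 was greater by 1.22 in XX lines (adjusted p = 0.014), and that of Mycn differed by −1.48 (adjusted p = 0.012). Between the crosses, the change of Etv4 from serum to 2i differed by −1.72 (MSM minus B6, adjusted p = 0.044) and that of Ets1 by 1.57 (adjusted p = 0.025). The last was 0.05 after subtraction of fibroblast RNA.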

How the results depend on the processing

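Of the results given for single members and comparisons (112 in all), 111 kept their direction and side of the threshold with a pseudocount of 0.1 RPKM, 105 with quantile normalization, and all but 10 without the filter on low values, where more genes are tested. Subtraction of fibroblast RNA left 64 of 76 results on their side. Leaving out libraries left 764 of 882 values so. The 4 members lower in B6 2i than in serum, Ets2 in XX against XY, and the differences between sexes in Mycn and Ets2 that were called kept their calls with any library left out. The number of members called (limma, adjusted p under 0.05) changed by more than 1.5 times as follows. Without the filter it was 1 for t2i against 2i, 0 for a2i against 2i, 1 for MSM 2i against serum, 0 for 2i-S, 0 for MSM XX against XY and 1 for the difference between crosses. With quantile normalization it was 1 for the difference between crosses and 2 for MSM XX against XY. After subtraction it was 2 for B6 2i against serum (Etv4 and Mycn), 1 for t2i against serum, 1 for a2i against serum, 1 for a2i against 2i, 0 for 2i-S and 0 for the difference between crosses. In a fit of 8 libraries it was 1 for a2i against 2i. With single libraries left out it ranged from 0 to 2 for t2i against 2i and for a2i against 2i, 1 to 2 for XX against XY and for the sex difference in 2i against serum, 0 to 4 for MSM 2i against serum, 0 to 1 for 2i-S and for MSM XX against XY, and 0 to 3 for the difference between crosses. Smaller changes were 3 for MSM 2i against serum with a pseudocount of 0.1, 3 to 5 for a2i against serum, up to 5 for B6 2i and for t2i against serum, and 4 to 6 for fibroblasts against 2i. The alternatives for MSM XX against XY were chosen after seeing the data.

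Members that changed direction were never called. With quantile normalization these were Etv1 in B6 2i against serum (0.26), in a2i against serum (0.18) and in the sex difference of a2i against 2i (−0.17). After subtraction they were Myc in the sex difference of 2i against serum (0.87), Ets1 in MSM 2i against serum (0.0645) and Myc between crosses (−0.99). With single libraries left out, 2i against serum in the B6 cross gave −0.069 to 0.15 for Ets2. For a2i against 2i Etv1 gave −0.26 to 0.25 and Ets1 −0.16 to 0.13. For a2i against t2i Etv5 gave −0.036 to 0.24 and Myc −0.49 to 0.60. Etv5 gave −0.10 to 0.37 for t2i against serum, and Etv1 −0.44 to 0.076 for a2i against serum. In the sex differences, 2i against serum gave −0.32 to 0.12 for Myc. There t2i against 2i gave −0.39 to 0.56 for Etv4, −0.39 to 0.17 for Etv5, −0.13 to 0.091 for Ets1 and −0.48 to 1.70 for Myc. For a2i against 2i these were −0.48 to 0.55 for Etv1, −0.044 to 0.38 for Etv5, −0.48 to 0.091 for Ets1 and −0.37 to 1.19 for Myc. In the MSM cross, Ets1 gave −0.45 to 0.16 for 2i against serum and −0.72 to 0.29 for 2i-S, where Mycn gave −0.044 to 0.47. For MSM XX against XY Etv5 gave −0.35 to 0.014 and Mycn −0.12 to 0.34. Between crosses Mycn gave −0.59 to 0.0092. Where the construction does not show it, the cause was not tested. Quantile normalization also moved the genes called for t2i against serum from 2010 higher and 3747 lower to 3651 and 2568, for a2i against serum from 1636 and 3282 to 3239 and 2265, for the sex difference in a2i against 2i from 435 and 213 to 249 and 198, and for 2i-MEF against fibroblasts from 17 and 44 to 36 and 39. No paired analysis was possible because no media share 2 or more line numbers, line 15 being the only ESC line grown in more than 1 culture. RPKM keep no absolute depth, so the precision of single low values, such as Ets1 below 1 RPKM, is unknown.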
